A study of Mus musculus with 2 samples.

Results

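The microRNA genes Mir199a-1, Mir199a-2, Mir199b, Mir214, Mir140, Mir218-1 and Mir218-2 were examined in the small RNA of mouse lung at embryonic day 16.5. They were chosen by gene name: each is a row of the deposited count tables whose identifier carries one of these names in GENCODE release M21. All 7 names were found among 1973 microRNA genes. The tissue was healthy lung of strain B6NCrl embryos, and RNA under 30 bases was sequenced. The 2 libraries are labelled biological replicates 1 and 2 of a single group with no treatment, mutation or second condition, and both share 1 donor label. Each was made from lungs pooled from male and female embryos, 41 embryos for replicate 2 and a number not given in the sources used here for replicate 1. In such bulk tissue, fewer cells of a type and less RNA per cell cannot be told apart.

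A microRNA is cut from a hairpin in a longer transcript and leaves a short duplex, whose 5′ and 3′ arms (5p and 3p) can each be loaded into an Argonaute protein. Bases 2 to 8 of the loaded strand, the seed, do most of the pairing with target messenger RNAs. In the mouse, the miR-199 and miR-214 genes are known for expression in mesenchyme, the connective tissue that surrounds the epithelial airway tree. Mir140 is known as a microRNA of cartilage, which also forms the rings and plates of the large airways. The miR-218 genes lie within Slit genes, whose secreted proteins bind Robo receptors and guide axons and vessels.

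The 7 genes lie at 6 loci of mm10, on 6 chromosomes. Mir199a-2 (ENSMUSG00000070126.1, chromosome 1, 162217814 to 162217923) and Mir214 (ENSMUSG00000065516.1, chromosome 1, 162223368 to 162223477) lie on the plus strand 5444 bases apart. Both overlap annotated exons of the noncoding gene Dnm3os and lie in an intron of Dnm3, which is transcribed from the opposite strand. Mir199b (ENSMUSG00000092807.1, chromosome 2, 32318460 to 32318569, plus strand) and Mir199a-1 (ENSMUSG00000065547.1, chromosome 9, 21496495 to 21496564, minus strand) lie opposite introns of Dnm1 and Dnm2. The Dnm genes encode dynamins, GTPases that pinch membranes. Mir140 (ENSMUSG00000065439.1, chromosome 8, 107551244 to 107551313, plus strand) overlaps an annotated exon of Wwp2, a ubiquitin ligase gene on the same strand. Mir218-1 (ENSMUSG00000065603.1, chromosome 5, 48223942 to 48224051, plus strand) lies in an intron of Slit2 and Mir218-2 (ENSMUSG00000065583.1, chromosome 11, 35616816 to 35616925, plus strand) in an intron of Slit3, both in the sense direction.

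The mature products show which of these genes a read can be assigned to, so they are printed here from RefSeq (build GRCm38.p6), 5′ to 3′, with the seed in capitals. All 7 genes matched the RefSeq table by symbol, with 8 distinct mature sequences and 8 distinct seeds.
miR-199a-5p: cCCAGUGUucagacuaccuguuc
miR-199a-3p and miR-199b-3p: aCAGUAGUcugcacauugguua
miR-214-5p: uGCCUGUCuacacuugcugugc
miR-214-3p: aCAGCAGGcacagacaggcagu
miR-140-3p: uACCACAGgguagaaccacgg
miR-218-5p: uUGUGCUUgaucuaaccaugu
miR-218-1-3p: aAACAUGGuuccgucaagcacc
miR-218-2-3p: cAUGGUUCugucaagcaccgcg
Copies of miR-199a-5p lie at chr1:162217844-162217866 (plus strand) and chr9:21496537-21496559 (minus strand). The shared miR-199 3p product lies at chr1:162217883-162217904 (plus), chr2:32318524-32318545 (plus) and chr9:21496498-21496519 (minus). Mir214 gives its 5p product at chr1:162223397-162223418 and its 3p product at chr1:162223438-162223459 (plus strand), and miR-140-3p lies at chr8:107551288-107551308 (plus strand). Copies of miR-218-5p lie at chr5:48223966-48223986 and chr11:35616840-35616860, and the 3p products of Mir218-1 and Mir218-2 lie at chr5:48224005-48224026 and chr11:35616882-35616903, all on the plus strand. miR-199b-5p and miR-140-5p are named only.

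The 3 miR-199 hairpins are set out below, because their shared stretches decide which reads belong to 1 gene. Capitals mark every base that lies in a run of 22 bases found in another hairpin of the RefSeq table, which holds 1005 hairpins.
Mir199a-1: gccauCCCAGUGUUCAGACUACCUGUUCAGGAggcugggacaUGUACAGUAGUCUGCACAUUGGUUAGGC
Mir199a-2: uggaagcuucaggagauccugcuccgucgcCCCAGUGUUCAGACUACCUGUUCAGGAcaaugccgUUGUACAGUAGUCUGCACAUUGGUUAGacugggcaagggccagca
Mir199b: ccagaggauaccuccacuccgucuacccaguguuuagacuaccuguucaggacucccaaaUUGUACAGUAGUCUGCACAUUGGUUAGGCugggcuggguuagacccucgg
Both mature stretches of Mir199a-1 and Mir199a-2 are in capitals, 55 of 70 and 54 of 110 bases. In Mir199b only the 3p stretch is shared, 29 of 110 bases. miR-199a-5p, placed on the Mir199b hairpin, differs at 1 base, C10U (miR-199a-5p first, positions counted from 1 at its 5′ end). That stretch of Mir199b reads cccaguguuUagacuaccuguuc, with the substituted base in capitals.

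The miR-218 hairpins share 22 bases, just the 5p product and 1 base after it. A read that starts at the 5′ end of miR-218-5p must run 2 bases past its 3′ end before it is in only 1 of the 2 hairpins. For miR-199a-5p that number is 5, for the 3p product of Mir199a-2 it is 2, and for miR-199b-3p it is 4. The Mir199a-1 hairpin ends 3 bases after its 3p product, within the shared stretch. The listed products of Mir214 and Mir140, and the 3p products of Mir218-1 and Mir218-2, occur in no other hairpin of the table. In the deposited tables, reads that match several loci stand on a line of their own and were not counted to genes. That line held 3856768 reads in replicate 1 and 2684057 in replicate 2, which was 29.97% and 31.8% of the reads accounted for. How many of them come from miR-199 or miR-218 was not measured here, so the levels of the 5 genes with shared products are those of the counted reads only.

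The level of each gene was expressed as CPM, its counts scaled to a total of 1e+06 over all microRNA genes of a library, which were 6376715 counts in replicate 1 and 4123748 in replicate 2. Reads are of mature size, so no division by length was made. All 7 genes had at least 10 counts in each library, the minimum for calling a gene detected, which 347 of 1973 genes (17.6%) passed. Together they held 1.02% of gene counts in replicate 1 and 1.03% in replicate 2 (mean 1.03% ± 0.00790, SD, n = 2). Mir140 and Mir214 made up 90.03% of these counts in replicate 1 and 90.9% in replicate 2. Mir199b made up 8.91% and 8.25%, and the other 4 genes together 1.06% and 0.880%. None of the 7 genes had a count on the strand opposite to its annotation in either library (a count of 0 allows up to 3 counts), and 50 of the 347 detected genes had at least 1.

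Mir140, the cartilage microRNA, had the highest mean level of the 7. It had 30297 counts in replicate 1 and 19107 in replicate 2, or 4751 and 4633 CPM (mean 4692 ± 83.3, SD, n = 2). The 95% exact intervals for counting error were 4698 to 4805 CPM and 4568 to 4699 CPM. With library totals, the SD was 1.77% of the mean, the smallest of the 7 genes, where the median over all detected genes was 7.80%. That place depends on the scaling. With TMM factors, the log2 ratio of replicate 1 over replicate 2 was 0.088 for Mir140 and -0.044 for Mir214, the smaller difference. Mir140 ranked 39 among detected genes in replicate 1 and 40 in replicate 2.

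Mir214, the downstream gene of the Dnm3os locus, had 28409 counts in replicate 1 and 19631 in replicate 2. Its levels were 4455 and 4760 CPM (mean 4608 ± 216, SD, n = 2), with intervals of 4404 to 4507 CPM and 4694 to 4827 CPM. Its range enclosed that of Mir140, so the order of these genes was not resolved. Mir140 was 1.07-fold above Mir214 in replicate 1 (1.05 to 1.08) and 0.973-fold in replicate 2 (0.954 to 0.993), where it was the lower one.

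Mir199a-2, the upstream gene of the same noncoding transcript, was far lower than Mir214 in the counted reads. It had 416 counts in replicate 1 and 231 in replicate 2, or 65.2 and 56.0 CPM (mean 60.6 ± 6.52, SD, n = 2). Mir214 was 68.3-fold above it in replicate 1 (62.0 to 75.4) and 84.98-fold in replicate 2 (74.6 to 97.2). The products of Mir199a-2 have copies and those of Mir214 do not, and the part of the copies in this ratio was not tested.

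Mir199b was the highest of the miR-199 genes. It had 5813 counts in replicate 1 and 3517 in replicate 2, or 912 and 853 CPM (mean 882 ± 41.5, SD, n = 2). Mir199a-1 was the lowest of all 7 genes, with 38 and 22 counts, or 5.96 and 5.33 CPM (mean 5.65 ± 0.441, SD, n = 2), and intervals of 4.22 to 8.18 CPM and 3.34 to 8.08 CPM. Within a library, Mir199b was 13.97-fold above Mir199a-2 in replicate 1 (12.6 to 15.5) and 15.2-fold in replicate 2 (13.3 to 17.5). Mir199a-2 was in turn 10.9-fold above Mir199a-1 in replicate 1 (7.84 to 15.7) and 10.5-fold in replicate 2 (6.77 to 17.1). These ratios were alike in both libraries, and their intervals overlapped. Of the 3 genes, Mir199b is the one whose hairpin keeps a 5p stretch of its own, and whether this sets its level was not tested. The 3 genes together came to 983 CPM in replicate 1 and 914 CPM in replicate 2.

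The miR-218 genes were low. Mir218-2, in Slit3, had 129 counts in replicate 1 and 71 in replicate 2, or 20.2 and 17.2 CPM (mean 18.7 ± 2.13, SD, n = 2). Mir218-1, in Slit2, had 106 and 51 counts, or 16.6 and 12.4 CPM (mean 14.5 ± 3.01, SD, n = 2). With library totals, the library ranges of the Slit3 and Slit2 genes did not overlap, yet in each library counting error covers the difference. Mir218-2 was 1.22-fold above Mir218-1 in replicate 1 (0.934 to 1.59) and 1.39-fold in replicate 2 (0.958 to 2.04). Their summed level was 36.9 CPM in replicate 1 and 29.6 CPM in replicate 2.

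In order of mean level, the genes were Mir140, Mir214, Mir199b, Mir199a-2, Mir218-2, Mir218-1 and Mir199a-1. With library totals, each neighbour in this order was separated from the next by library ranges that did not overlap, except Mir140 and Mir214. The gap was narrow for the miR-218 genes, from 16.6 CPM (Mir218-1, replicate 1) to 17.2 CPM (Mir218-2, replicate 2). Whether it holds with other scalings was not tested. The steps were 5.22-fold between Mir214 and Mir199b, 14.6-fold between Mir199b and Mir199a-2, and 3.24-fold between Mir199a-2 and Mir218-2. Then came 1.29-fold between the miR-218 genes and 2.57-fold between Mir218-1 and Mir199a-1. With 2 libraries, no test of these levels was made.

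**Figure D1:**
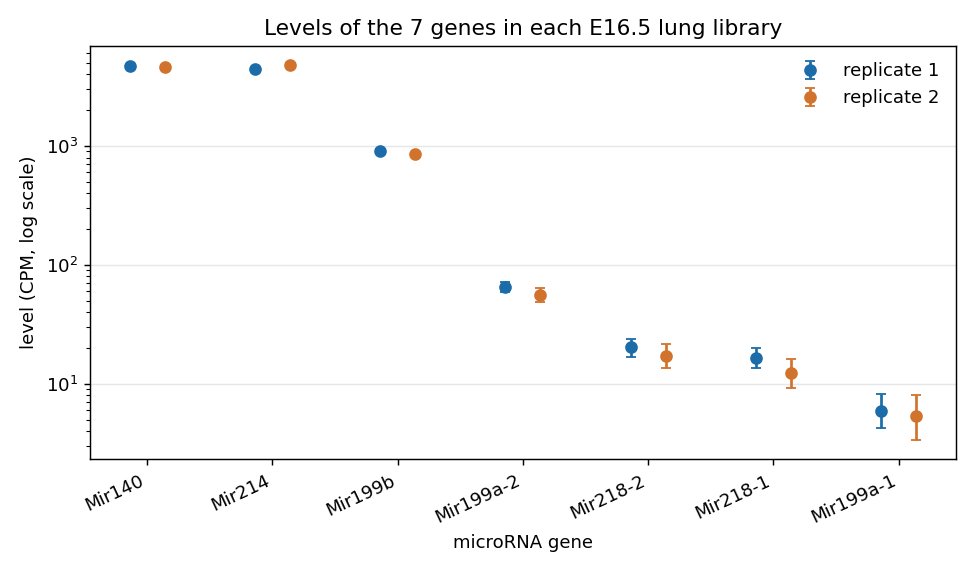
Level of each gene in CPM (log axis) in replicate 1 (blue) and replicate 2 (orange). Bars are 95% exact intervals for counting error, smaller than the points for the top 3 genes, and the libraries lie close together at every gene while the genes span from 5.65 CPM (Mir199a-1) to 4692 CPM (Mir140).

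Among all detected microRNA genes, the median of the mean levels was 180 CPM and the middle part ran from 20.4 CPM (lower quartile) to 1324 CPM (upper quartile). Mir140 (rank 39 of 347), Mir214 (rank 40) and Mir199b (rank 109) lay above the median. Mir199a-2 (rank 220), Mir218-2 (rank 263), Mir218-1 (rank 269) and Mir199a-1 (rank 313, tied with Mir302b) lay below it. These ranks use the counted reads, so those of genes with shared products rest on the reads that could be placed.

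**Figure D2:**
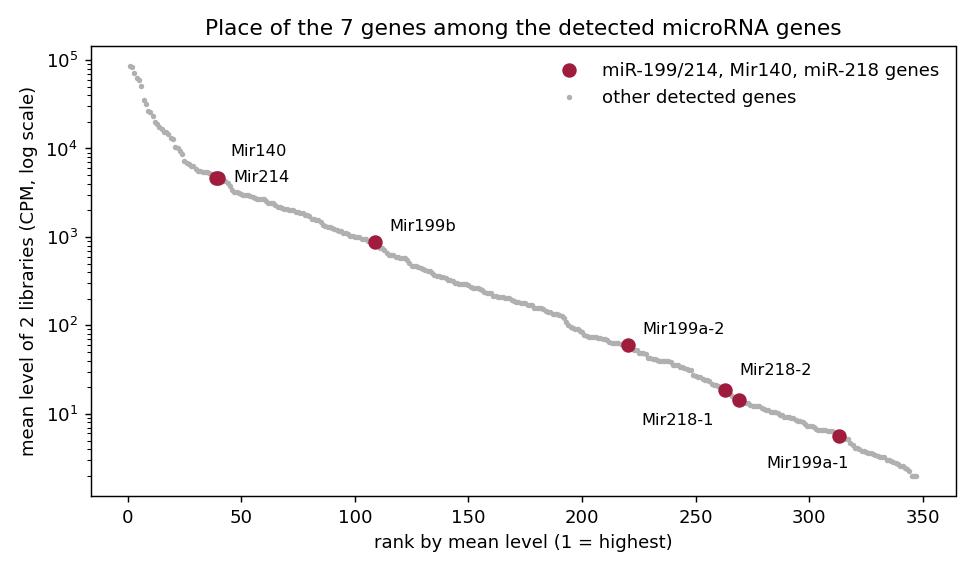
Mean level of the 347 detected genes (CPM, log axis) against their rank, with the 7 genes in red. Mir140 and Mir214 sit side by side at ranks 39 and 40, and 4 of the 7 genes lie below the median of 180 CPM.

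The gene outside the 7 most like each of them was sought by the distance between log2(CPM + 1) values over the 2 libraries, which measures level alone. Mir379, of the imprinted Dlk1-Dio3 cluster, was the nearest to both Mir140 and Mir214, at 4473 CPM in replicate 1 and 4447 CPM in replicate 2 (distance 0.11 to Mir140 and 0.099 to Mir214). Nearest to Mir199b was Mir467e (895 and 865 CPM, distance 0.034) and to Mir199a-2 was Mir7-1 (64.1 and 57.2 CPM, distance 0.039). Mir302b had the same counts as Mir199a-1 in both libraries. Nearest to Mir218-1 was Mir302a (16.8 and 12.6 CPM, distance 0.029) and to Mir218-2 was Mir153 (21.5 and 17.5 CPM, distance 0.085).

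Seeds were next compared with those of all mature products in the RefSeq table. The seed of miR-214-3p, CAGCAGG, is also that of miR-761, and Mir761 had 0 counts in both libraries. The seed of miR-218-5p, UGUGCUU, is also in miR-7002-3p, and Mir7002 had 1 count in replicate 1 and 0 in replicate 2. The seed of miR-218-1-3p, AACAUGG, is shared with miR-496b, whose gene had 0 counts in both. The seed of miR-140-3p, ACCACAG, is shared with miR-497b, whose gene Mir497b had 13046 counts in replicate 1 and 9488 in replicate 2 (2173 CPM ± 180.3, SD, n = 2). Of these, 13045 and 9488 lay on the strand opposite to Mir497b, so 1 and 0 counts were on the strand that carries this seed. GENCODE M21 annotates Mir497 within that interval on the opposite strand. The listed 5p and 3p products of miR-199 and the other listed products shared their seeds with no gene of that table outside the 7. Counted genes not found in the table, such as Mir143 and Mir455, could not be compared.

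The libraries were compared gene by gene, to show how far the levels of the 7 genes varied between pools of lungs. The comparison was an exact binomial test of the counts against the library totals, two-sided, with Benjamini-Hochberg adjustment over all 347 detected genes. It weighs a difference against counting error only, compares these libraries and not conditions, and includes any difference in library preparation. At an adjusted p under 0.05, 3 of the 7 genes differed, where 47.0% of detected genes did. Of these 3, 2 were higher in replicate 1, where 16.4% of detected genes were, and 1 was higher in replicate 2, where 30.5% were. A share of 3 in 7 is near that background.

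Mir214 was lower in replicate 1, at 4455 CPM against 4760 CPM in replicate 2, a ratio of 0.936 (95% interval 0.919 to 0.953, adjusted p = 5.67e-12, exact binomial test). Mir199b was 1.07-fold higher in replicate 1 (1.02 to 1.11, adjusted p = 0.00500, exact binomial test), and Mir140 1.03-fold higher (1.01 to 1.04, adjusted p = 0.0159, exact binomial test). The sizes of the small differences depended on the scaling. The log2 ratio of Mir140 was 0.036 with library totals, 0.088 with TMM factors and 0.080 with DESeq2 size factors, and that of Mir214 was -0.096, -0.044 and -0.052 in the same order. The log2 ratio of Mir199b was 0.096 with library totals, 0.15 with TMM factors and 0.14 with DESeq2 size factors. Mir214 and Mir199a-2, which overlap the same noncoding gene, had ratios on opposite sides of 1. With library totals, the interval of Mir199a-2 (0.989 to 1.37) included 1, so its side was not resolved under that scaling. Its log2 ratio was 0.22 with library totals, 0.27 with TMM factors and 0.26 with DESeq2 size factors. The adjusted p was 0.0501 with TMM factors and 0.0598 with DESeq2 size factors (exact binomial test).

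The 4 low genes did not pass, with wide intervals. The ratio of replicate 1 over replicate 2 was 1.16 for Mir199a-2 (0.989 to 1.37, adjusted p = 0.124) and 1.12 for Mir199a-1 (0.644 to 1.98, adjusted p = 0.851) in the exact binomial test. It was 1.34 for Mir218-1 (0.954 to 1.92, adjusted p = 0.156) and 1.17 for Mir218-2 (0.873 to 1.59, adjusted p = 0.430) in the same exact test. By value alone, 6 of the 7 ratios were above 1, and the median log2 ratio of the 7 genes was 0.16, beside -0.052 over all detected genes. The median size of the log2 ratio was 0.16 for the 7 genes and 0.16 for all detected genes.

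**Figure D3:**
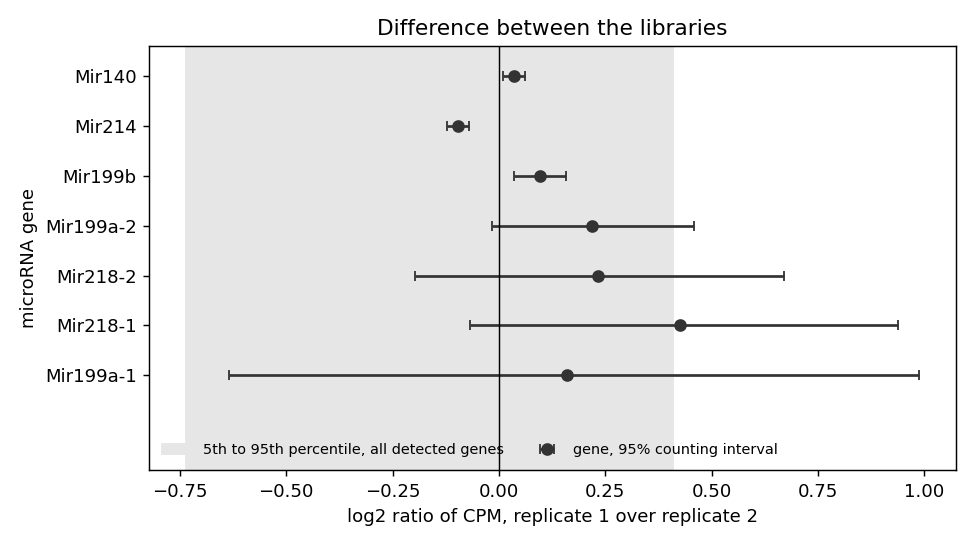
Log2 ratio of CPM in replicate 1 over replicate 2 for each gene, with 95% intervals for counting error. The grey band runs from the 5th to the 95th percentile of all detected genes (-0.74 to 0.41), and Mir218-1, at 0.43, is the only one of the 7 points outside it, with an interval that spans 0.

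**Figure D4:**
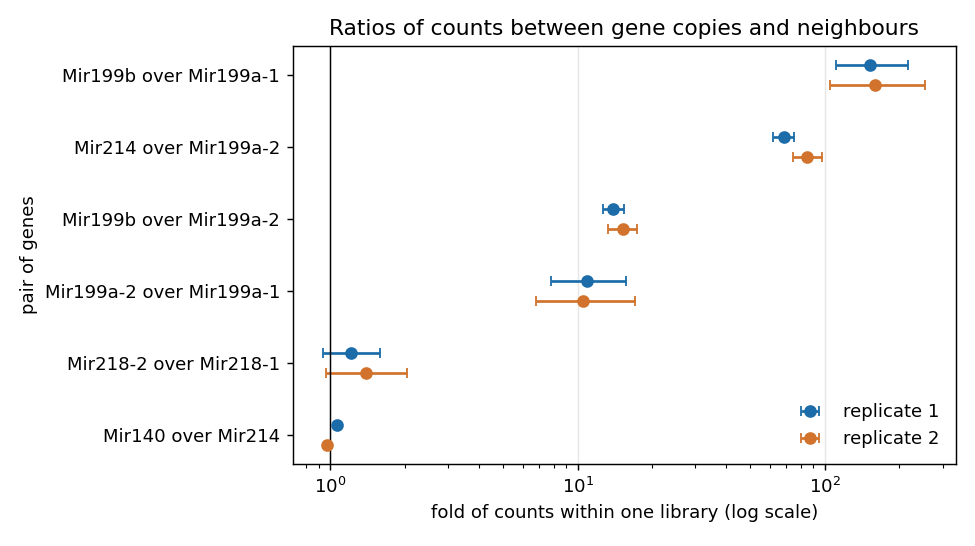
Fold of the counts of one gene over another within each library (log axis), with 95% intervals for counting error. Mir140 over Mir214 falls on both sides of 1, Mir218-2 over Mir218-1 has intervals that include 1, and the ratios among the miR-199 genes lie between 10.5 and 160 with overlapping intervals in replicate 1 and replicate 2.

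Other microRNAs of mesenchyme and smooth muscle were counted from a fixed list. Of 16 measured, 13 were detected, and they held 12.5% of gene counts in replicate 1 and 13.0% in replicate 2, led by Mir143 (71247 CPM ± 1447, SD, n = 2) and Mir23b (26797 ± 1333). Of these 13 genes, 0 were called higher in replicate 1 and 8 higher in replicate 2, where 16.4% and 30.5% of all detected genes were, with a median log2 ratio of -0.10. That split rests on the scaling, since it was 4 and 6 with TMM factors and 3 and 7 with DESeq2 size factors. The epithelial list was also called mostly higher in replicate 2 with library totals, with 1 and 7 of its 9 detected genes, beside the same 16.4% and 30.5%. It was 2 and 5 with TMM factors and 2 and 6 with DESeq2 size factors. Over all 347 detected genes, those scalings gave 78 and 75, and 76 and 80. The cartilage list beside Mir140 had 3 of 3 genes detected, led by Mir27b (2293 CPM ± 146, SD, n = 2) and Mir455 (2156 ± 302). Mir27b is also in the mesenchyme and smooth muscle list above, so the 2 lists are not separate. Of the 3 genes of the cartilage list, 0 were called higher in replicate 1 and 2 in replicate 2 under each of the 3 scalings. With library totals, the same 16.4% and 30.5% of all detected genes were.

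Other cell types of the lung were in the same libraries. Epithelial microRNAs (9 of 9 detected) held 5.27% of gene counts in replicate 1 and 5.89% in replicate 2, and the endothelial Mir126a 8.73% and 7.91%. Markers of tissues other than lung were lower. Muscle microRNAs (5 of 8 detected) held 0.108% and 0.120%, and neural ones (3 of 8) 0.0221% and 0.0299%. Blood ones (5 of 5) held 0.183% and 0.150%, and the liver microRNA Mir122 0.0111% and 0.0601%. Only list members found by name are counted. Mir142 of the blood list was not found, so the blood share leaves it out. Mir142b, whose hairpin covers that of Mir142, had 7330 and 5187 counts and is in no list. Mir126b, Mir9-1, Mir1a-2 and Mir24-1 of the lists were also not found. Of these lists, Mir1a-1, Mir133a-1 and Mir133a-2 of muscle and Mir124a-1 and Mir9-2 of neural tissue had 0 counts in both libraries, as did Mir145b of the mesenchyme list. The microRNAs miR-1, miR-133a, miR-124 and miR-9 are known to come from several near-identical genes, and reads that match several loci were not counted, so these zeros and the low muscle and neural shares do not show that the microRNAs were absent. In the RefSeq table, 4 of 5 listed neural genes shared a run of 22 bases with another hairpin, and 0 of 5 listed muscle genes did. Mir1a-1, Mir133a-1, Mir133a-2 and Mir124a-1 were not found there, so their copies were not checked. Which cells the reads of the 7 genes came from was not measured, so the name mesenchymal rests on what is known of these genes and not on these counts.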

How the data were processed

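Small RNA of 2 mouse lung libraries was analysed. The authors deposited raw read counts for each microRNA gene. Assembly mm10 and GENCODE M4 were used for them, per the file headers, while no source used here names the aligner or counting program. The first count column, which equals the sum of the strand columns in every gene, was used. The 4 summary lines were left out of totals, and 1894 of 1973 identifiers matched GENCODE M21 names. CPM, the exact binomial test with Benjamini-Hochberg adjustment, and Clopper-Pearson intervals at 95% were computed with Python 3.11.15, numpy 2.4.6, scipy 1.17.1 and pandas 2.3.3. Without molecular identifiers, reads are not independent molecules, so intervals and floors hold counting error alone. TMM factors (edgeR 4.0.16) and DESeq2 1.42.0 size factors, in R 4.3.3, gave alternative totals. Sequences come from RefSeq (GRCm38.p6). The test was also run on simulated counts with known folds. These held counting error only, so the run does not cover other variation between libraries or the choice of scaling. Named outside the 7 genes are the nearest gene by level, seed sharers and the leading 2 genes of the mesenchyme and cartilage lists. List members at 0 or not found by name, and Mir142b, are named too. The members and lists were chosen with earlier results of these data known.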

Additional observations from a re-analysis of the deposited data

Results flagged for a closer look

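The opposite-strand column, which no comparison above uses on its own, held 13045 counts in replicate 1 and 9488 counts in replicate 2 at Mir497b, which shares the seed of miR-140-3p. Both lie above the 3 counts that a count of 0 allows. GENCODE M21 annotates Mir497 on that strand, overlapping Mir497b, and no gene of the deposited counts was found under the name Mir497. The reads on that strand therefore lie in the sense direction of Mir497.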

How the results depend on the processing

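Of 78 recomputed values, 73 kept their direction and their side of the threshold or moved by less than 1 SD. Some of these could not have moved. With 2 libraries, a mean without 1 library always lies within 1 SD of the full mean. Ratios within a library are the same with the annotated strand only, since none of the 7 genes had opposite-strand counts. The 73 is therefore not a measure of stability. The summed share of the 7 genes (1.03%) was 1.06% with the counts of the annotated strand only, 0.632% with multi-locus reads in the total and 1.12% without Mir322 in the total, each by construction of the total. Mir140 averaged 4821 CPM with the counts of the annotated strand. The log2 ratio of Mir140 over Mir214 (0.027) ran from -0.039 without replicate 1 to 0.093 without replicate 2, so its direction rests on 1 library. The binomial test called 163 detected genes, with 57 on the side of replicate 1 and 106 on that of replicate 2. With TMM factors this split was 78 and 75, with DESeq2 size factors 76 and 80, while Mir140, Mir199b and Mir214 were called in each fit, in the same directions. Mir199a-2 came nearest to a change of call, with an adjusted p of 0.0501 with TMM factors and a range of 0.0501 to 0.135 over the alternatives (exact binomial test). At a minimum of 50 counts, Mir199a-1 was no longer tested. No paired analysis was possible because there is a single group. Depth limits the miR-218 genes and Mir199a-1, whose counts lay between 22 and 129.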

Other observations

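A further microRNA gene, Gm23363, is annotated 116 bases from Mir199b on the same strand. It had 5 counts in replicate 1 and 5 in replicate 2, against 5813 and 3517 counts at Mir199b.

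Genes outside the 7 were grouped by whether their listed mature products occur whole in another hairpin of the RefSeq table. Only genes with a mature product in that table were grouped, so the shares below are not shares of all 1973 genes. Some counted genes, such as Mir143 and Mir455, were not found in the table. Copies in such genes could not be seen, so a gene grouped as having none may still have one. Where all products did, as for the listed products of Mir199a-1, Mir199a-2 and Mir199b, 6 of 32 genes (18.8%) were detected, at a median of 163 CPM. Where some did, as for Mir218-1 and Mir218-2, 31 of 48 genes (64.6%) were detected, at a median of 49.2 CPM. Where none did, as for Mir214 and Mir140, 266 of 829 genes (32.1%) were detected, at a median of 207 CPM. These are descriptions over genes, which share loci and families, and no test was made. The table lists 1 mature product for Mir199b and 1 for Mir140.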
